A study of Schizosaccharomyces pombe with 8 samples.

Results

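The pericentromeric DNA described here is the unique sequence on both sides of the centromeric repeats of the 3 fission yeast (Schizosaccharomyces pombe) chromosomes, with the repeats themselves. Its members are the ligated pairs of DNA ends with at least 1 end in chrI:3650000-3840000, chrII:1550000-1698000 or chrIII:1015000-1192000, in total 515 kb or 4.1% of the genome. In the interacting library 5036 of 101984 pairs met this rule, and in the de-crosslinked library 6503 of 123434 pairs did. One ligation junction can be read as several pairs with slightly different ends, so pairs with both ends within 500 bp of each other were linked and counted once, as ligation events. This left 1873 of 35511 events in the interacting library (2.69 pairs per event in the windows), against 3117 of 56018 in the de-crosslinked library (2.09 pairs per event).

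Both libraries came from cells of genotype pat1-114 rec12Δ carrying Rec27-GFP. The pat1-114 allele is temperature-sensitive and lets meiosis start at 34 °C, and without rec12 the cells lack the enzyme that cuts DNA to begin meiotic recombination. After about 18 h without nitrogen, nitrogen was added with the shift in temperature, cells were taken at 3.5 h, and 500 mL of culture was fixed in 1% formaldehyde. Rec27-GFP was then immunoprecipitated from chromatin sheared to about 1000 bp. The interacting library was ligated while crosslinked and on the beads, and the de-crosslinked library was ligated only after crosslinks and protein had been removed. There was 1 library of each kind, so that every test compares these libraries, not conditions, and every interval covers counting error only. With no input or untagged library among the samples, a high density of ends cannot be assigned to Rec27 binding.

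A fission yeast centromere has a central core of unique sequence, where the kinetochore is built on nucleosomes with the CENP-A histone, and long flanking repeats packed into heterochromatin with histone H3 lysine 9 methylation and Swi6. Clusters of tRNA genes lie at the borders, and some of them act as boundaries of the heterochromatin. Cohesin is dense there, and meiotic recombination is low near the centromeres. Rec27 is a protein of the linear elements, the axis-like structures of fission yeast meiotic chromosomes, and with Rec25 is known to mark hotspots of meiotic DNA breaks.

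The assembly used as reference (ASM294v3 of RefSeq) holds no annotated centromere, so the repeats were taken as the span between the outermost stretches of at least 2 kb without a unique 50-base word. They ran over chrI:3752588-3790471 (37.9 kb, 5.97% unique), chrII:1605309-1641221 (35.9 kb, 20.2% unique) and chrIII:1072089-1138573 (66.5 kb, 3.33% unique). The windows held 59 of the 171 tRNA genes of the 3 chromosomes, 36 of them outside the repeats. Of those 59 genes 41 contained no unique 50-base word, and only 3 event ends of the interacting library and 2 of the de-crosslinked library lay in any of them. Ends in repeated sequence could not be seen in these tables. Densities are given per kb of unique sequence, over the mean of the genome in the same library (5.89 event ends per unique kb in the interacting library, against 9.29 in the de-crosslinked library).

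The fullest stretches of sequence beside the centromeres held only a small part of the event ends there. All flanks together had 1928 interacting and 3134 de-crosslinked event ends. The 300-base stretch with most event ends in the flanks of each chromosome, both libraries summed, is given below from RefSeq on the plus strand, with capitals at each base where an end of either library lay. On chromosome I it lay at chrI:3747666-3747965, between rpl1002, a ribosomal protein gene, and per1, an amino acid permease gene, in the noncoding RNA genes SPNCRNA.934 and SPNCRNA.935.
Summit of chromosome I: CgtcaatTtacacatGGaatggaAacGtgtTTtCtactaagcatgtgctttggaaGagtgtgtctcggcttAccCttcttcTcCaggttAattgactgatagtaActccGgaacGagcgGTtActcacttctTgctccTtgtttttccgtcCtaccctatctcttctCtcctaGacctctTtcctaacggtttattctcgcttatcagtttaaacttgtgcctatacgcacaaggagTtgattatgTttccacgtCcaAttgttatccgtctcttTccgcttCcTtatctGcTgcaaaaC
On chromosome II it lay at chrII:1588710-1589009, between ngg1, which codes for a subunit of the SAGA coactivator, and hmo1, which codes for an HMG-box protein.
Summit of chromosome II: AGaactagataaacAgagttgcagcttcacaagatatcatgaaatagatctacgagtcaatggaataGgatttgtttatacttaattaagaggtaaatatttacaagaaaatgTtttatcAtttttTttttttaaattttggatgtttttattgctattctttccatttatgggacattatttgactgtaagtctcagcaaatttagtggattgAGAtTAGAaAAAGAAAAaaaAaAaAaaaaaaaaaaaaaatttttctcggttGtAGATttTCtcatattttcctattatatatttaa
On chromosome III it lay at chrIII:1168184-1168483, overlapping hem12, a gene of haem synthesis, and before nte1, a lysophospholipase gene.
Summit of chromosome III: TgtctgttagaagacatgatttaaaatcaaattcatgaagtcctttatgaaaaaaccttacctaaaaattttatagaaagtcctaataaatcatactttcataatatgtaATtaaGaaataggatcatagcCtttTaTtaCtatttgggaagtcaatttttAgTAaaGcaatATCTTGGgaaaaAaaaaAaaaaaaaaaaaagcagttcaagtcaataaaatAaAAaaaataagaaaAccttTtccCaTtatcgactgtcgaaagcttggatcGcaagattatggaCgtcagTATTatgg
The summit of chromosome I had 7 event ends in the interacting library, against 23 in the de-crosslinked library, spread along the stretch. The summit of chromosome II had 38 interacting and 52 de-crosslinked event ends, and that of chromosome III had 38 interacting and 32 de-crosslinked ones. At both of these, the ends crowded around a run of A, 26 bases long on chromosome II and 22 on chromosome III. Within 50 bases of that run lay 35 of the 38 interacting and 49 of the 52 de-crosslinked event ends on chromosome II, and 37 of 38 interacting and 30 of 32 de-crosslinked ones on chromosome III. Runs of 12 or more A or T were present in 1.68% of 41905 tiles of 300 bases of the genome and absent from the summit of chromosome I. The 38 interacting event ends of chromosome II came from 39 pair ends, and those of chromosome III from 53. The part of the A runs in these counts was not tested.

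By density the 3 pericentromeres were unlike each other in both libraries. The flanks of chromosome II were above the mean of the genome, and those of chromosomes I and III below it. A typical stretch of the arms also lay below that mean. The median of 294 arm tiles of 40 kb was at 0.91 in the interacting library, against 0.88 in the de-crosslinked library. On chromosome I the left flank had 0.85 times the genome mean in the interacting library (95% Poisson interval 0.78 to 0.93, 510 event ends), against 0.80 in the de-crosslinked library (0.74 to 0.86, 756 event ends). Its right flank had 0.74 (0.64 to 0.84) in the interacting library, against 0.64 (0.57 to 0.72) in the de-crosslinked library. On chromosome II the left flank had 1.24 (1.12 to 1.38) in the interacting library, against 1.34 (1.24 to 1.45) in the de-crosslinked library, and the right flank 1.19 (1.07 to 1.32) in the interacting library, against 1.43 (1.32 to 1.54) in the de-crosslinked library. On chromosome III the left flank had 0.71 (0.62 to 0.80) in the interacting library, against 0.84 (0.76 to 0.92) in the de-crosslinked library. The right flank of chromosome III had 0.82 (0.72 to 0.93) in the interacting library, against 0.73 (0.66 to 0.81) in the de-crosslinked library. Summed over the 6 flanks, the density was 0.91 times the genome mean in the interacting library (0.87 to 0.95), against 0.94 in the de-crosslinked library (0.91 to 0.97). That sum rests on chromosome II: without it the flanks had 0.79 in the interacting library, against 0.76 in the de-crosslinked library.

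Left and right of the repeats differed most between the libraries on chromosome III. There the left flank had 0.86 times the density of the right flank in the interacting library, against 1.15 times in the de-crosslinked library (226 interacting event ends left and 247 right, against 423 de-crosslinked event ends left and 349 right). The summit of chromosome III alone held 38 of those 247 interacting event ends on the right, against 32 of the 349 de-crosslinked ones. Its part in the contrast of left and right was not tested. The log2 odds ratio of left against right, interacting over de-crosslinked, was -0.41 (two-sided Fisher's exact test, p = 0.0167, adjusted over 3 chromosomes 0.05), which is at the threshold and lay above it when repeats were widened by 5 kb (adjusted p = 0.072) or copies merged within 1000 bp (adjusted p = 0.0572). By the same exact test it was past the threshold with flanks of 40 kb (adjusted p = 0.0147), with merging within 200 bp (adjusted p = 0.0251) and with every line counted (adjusted p = 1.1e-14), which takes copies of a junction as independent. On chromosome I the same ratio was -0.11 (adjusted p = 0.488) and on chromosome II 0.15 (adjusted p = 0.401), neither past the threshold in Fisher's exact test. With every line counted, chromosome I was past it too, at -0.54 (Fisher's exact test, adjusted p = 1.1e-08), and chromosome II was not (adjusted p = 0.611).

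**Figure D1:**
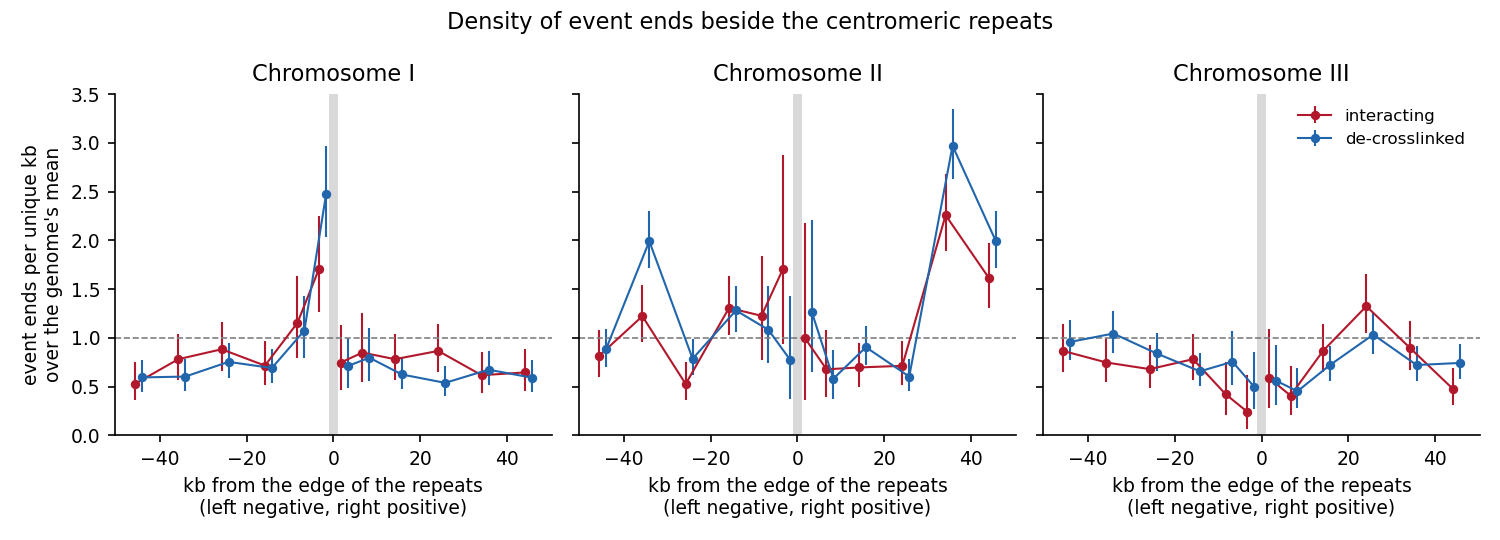
Event ends per unique kb over the genome mean (vertical) in steps of 5 to 10 kb from the edge of the repeats (horizontal; left of the repeats negative), for interacting and de-crosslinked libraries. Bars are 95% Poisson intervals, the grey band is the repeats (not to scale) and the dashed line the genome mean; the left edge of chromosome I and the right flank of chromosome II at 30 to 40 kb stand highest, and both edges of chromosome III are low.

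Left of the repeats, close to them, chromosomes I and III lay on opposite sides of the genome mean, as the plot of density by distance shows. In the 5 kb left of the repeats of chromosome I the density was 1.71 times the genome mean in the interacting library (1.27 to 2.25), against 2.47 in the de-crosslinked library (2.04 to 2.97). In the 5 kb left of the repeats of chromosome III it was 0.24 (0.07 to 0.62, 4 event ends) in the interacting library, against 0.50 (0.27 to 0.85, 13 event ends) in the de-crosslinked library. On the right no such contrast was seen, with 0.75 (0.47 to 1.13) interacting and 0.71 (0.49 to 1.00) de-crosslinked in the first 5 kb of chromosome I, and 0.59 (0.28 to 1.09) interacting and 0.56 (0.31 to 0.93) de-crosslinked in those of chromosome III. At 5 to 10 kb right of the repeats of chromosome III it was 0.41 (0.21 to 0.71) in the interacting library, against 0.45 (0.28 to 0.69) in the de-crosslinked library. On chromosome II the edge itself held too little unique sequence to say, with 14 interacting and 10 de-crosslinked event ends in 1.39 unique kb on the left. The highest density there lay 30 to 40 kb right of the repeats, at 2.26 (1.89 to 2.68) in the interacting library, against 2.97 (2.63 to 3.34) in the de-crosslinked library.

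Unique sequence inside the repeats, 11.7 kb in all, held ends at a lower density than the flanks. It had 38 event ends in the interacting library, 0.55 times the genome mean (0.39 to 0.75), and 61 in the de-crosslinked library, 0.56 times (0.43 to 0.72). The central core of chromosome II was the longest unique stretch inside any of the repeats, at chrII:1620758-1627609. It held 18 event ends in the interacting library, 0.45 times the genome mean (0.26 to 0.70), and 28 in the de-crosslinked library, 0.44 times (0.29 to 0.64). Its GC content was 28.6%, against 36.1% for the genome. The 300 bases with most event ends in it, chrII:1624311-1624610, had 3 interacting and 6 de-crosslinked event ends and are shown for comparison with the summits above, capitals again marking the ends.
Core of chromosome II: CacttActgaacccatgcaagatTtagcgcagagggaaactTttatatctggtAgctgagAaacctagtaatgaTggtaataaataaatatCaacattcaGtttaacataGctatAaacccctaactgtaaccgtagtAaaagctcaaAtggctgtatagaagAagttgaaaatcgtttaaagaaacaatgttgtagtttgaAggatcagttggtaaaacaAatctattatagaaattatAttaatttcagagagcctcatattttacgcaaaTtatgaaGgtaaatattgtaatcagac

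The authors' class of hot, whose rule is not given in the sources used here, was also most frequent on chromosome II. In the windows 28.6% of event ends were hot in the interacting library (26.6 to 30.6), against 33.3% in the de-crosslinked library (31.6 to 34.9). In the rest of the genome it was 35.6% (35.3 to 35.98) in the interacting library, against 38.8% (38.5 to 39.1) in the de-crosslinked library. The window of chromosome II had 49.3% hot ends in the interacting library, against 54.2% in the de-crosslinked library. That of chromosome I had 18.2% in the interacting library, against 20.1% in the de-crosslinked library, and that of chromosome III had 11.9% interacting and 15.1% de-crosslinked hot ends. No end inside the repeats was hot. This was 0 of 38 in the interacting library, with a Clopper-Pearson upper limit of 9.25%, and 0 of 61 in the de-crosslinked library, with one of 5.87%. Runs of hot ends formed 11 regions in the windows, 61.6 kb in all. The one nearest to any repeats, chrI:3744814-3751099, which reaches into per1, ended 1.49 kb from those of chromosome I and held 68 event ends in the interacting library, against 137 in the de-crosslinked library. The one with most ends was chrII:1676624-1682956, 35.4 kb from the repeats, with 140 in the interacting library, against 281 in the de-crosslinked library.

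Coding genes of the windows had, for the most part, somewhat fewer ends than the median gene. Each gene was taken with 500 bp on both sides, so that neighbours share ends, in event ends per unique kb over the median of all coding genes in that library. The 158 coding genes of the windows had a median of 0.84 in the interacting library (quartiles 0.67 and 1.12), against 0.88 in the de-crosslinked library (0.72 and 1.15). The 4868 genes elsewhere had 1.00 in both. In the de-crosslinked library chromosome II was not low, with a median of 1.20 on the left and 1.00 on the right. The flanks of chromosomes I and III had medians of 0.74 to 0.89 in that library. In the interacting library the genes of chromosome II were low as well, with a median of 0.74 on the left and 0.81 on the right. The flanks of chromosomes I and III had medians of 0.73 to 0.91 in the interacting library. Of the 158 genes, 109 (69.0%) were below 1 in the interacting library, where 49.4% of genes elsewhere were. In the de-crosslinked library 98 (62.0%) were below 1, where 49.6% of genes elsewhere were, and 76 (48.1%) were below 1 in both libraries, against 32.5% elsewhere. At 2 times the median gene or more were 7 window genes, 4.43%, in the interacting library against 5.22% of genes elsewhere, and 8, 5.06%, in the de-crosslinked library against 4.97% elsewhere. No test was made on these gene counts.

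Of the 3 genes nearest to the repeats on each side of each chromosome, 18 in all, the median was 0.78 in the interacting library, against 0.89 in the de-crosslinked library. On the left of chromosome I, per1 (0.86 kb from the repeats) had 23 event ends, 1.43 times the median gene, in the interacting library, against 55, 2.26 times, in the de-crosslinked library. Next came rpl1002 at 0.70 times in the interacting library, against 0.92 in the de-crosslinked library. The gene prm1, of membrane fusion in mating, had 0.88 times interacting and 0.84 times de-crosslinked. On the right of chromosome I, emc5, of the endoplasmic reticulum membrane complex, had 4 interacting and 6 de-crosslinked event ends, 0.46 times the median gene interacting and 0.45 times de-crosslinked. Next to it rad50, of the MRN complex that acts at DNA double-strand breaks, had 0.93 in the interacting library, against 0.85 in the de-crosslinked library, and sdh1, of succinate dehydrogenase, had 1.22 interacting and 1.27 de-crosslinked. On chromosome I the gene at the left edge was high and the gene at the right edge low in both libraries.

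On the left of chromosome II, rpb1, the gene of the largest subunit of RNA polymerase II, had 1.12 in the interacting library, against 1.05 in the de-crosslinked library. Beyond it hmo1 had 44 event ends, 3.42 times the median gene, in the interacting library, against 57, 2.94 times, in the de-crosslinked library. These are in large part the ends at the summit sequence above, which also fall partly within 500 bp of ngg1, at 0.95 interacting and 1.49 de-crosslinked. On the right of chromosome II all of yox1, a repressor of cell cycle genes, rec6, needed for meiotic DNA breaks, and dpm2, of dolichol phosphate mannose synthesis, were below the median gene, at 0.51, 0.74 and 0.59 in the interacting library, against 0.76, 0.67 and 0.78 in the de-crosslinked library. On the left of chromosome III, chk1, the DNA damage checkpoint kinase gene, had 22 interacting event ends, 0.80 times the median gene, and 45 de-crosslinked event ends, 1.08 times. The gene meu27 lies inside chk1 on the other strand and shares its ends, at 0.77 interacting and 1.17 de-crosslinked. The gene ubc11, of a ubiquitin-conjugating enzyme, had 0.62 interacting and 0.82 de-crosslinked. On the right of chromosome III ppc1, of coenzyme A synthesis, had 5 event ends, 0.40 times the median gene, in the interacting library, against 14, 0.73 times, in the de-crosslinked library. Its neighbours cmc2 and cbp3, both of mitochondrial complex assembly, had 0.60 and 0.88 in the interacting library, against 0.99 and 0.84 in the de-crosslinked library.

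The 1 kb bins with most event ends lay at different distances from the repeats in each window. The median 1 kb bin of the genome held 5 event ends in the interacting library, against 7 in the de-crosslinked library. On chromosome I the first bin in both libraries was chrI:3747001-3748000 beside per1, with 20 interacting and 45 de-crosslinked event ends, and the second was its neighbour, with 17 interacting and 30 de-crosslinked event ends. The third in the interacting library was chrI:3700001-3701000 at mde6, with 15 interacting and 8 de-crosslinked event ends. On chromosome II the first in both libraries was chrII:1680001-1681000, between ubp11, a ubiquitin protease gene, and pat1, with 52 interacting and 108 de-crosslinked event ends. The gene pat1 codes for the kinase whose loss of function starts meiosis, and these cells carry its pat1-114 allele. Next in the interacting library was chrII:1588001-1589000, with 39 interacting and 60 de-crosslinked event ends. It overlaps part of ngg1 and holds most of the summit sequence above, which lies between ngg1 and hmo1. After it came 2 neighbouring bins between isp4 and rpl26, tied at 28 interacting event ends, with 33 and 36 de-crosslinked event ends. In the de-crosslinked library the second was chrII:1573001-1574000, between sua1, the ATP sulfurylase gene, and mep33, with 17 interacting and 67 de-crosslinked event ends. On chromosome III the first in both was chrIII:1168001-1169000 over hem12 and nte1, with 40 interacting and 35 de-crosslinked event ends. The others there held 12 or fewer event ends in the interacting library, against 23 or fewer in the de-crosslinked library, among them psy1, a syntaxin gene, with 6 interacting and 23 de-crosslinked event ends.

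**Figure D2:**
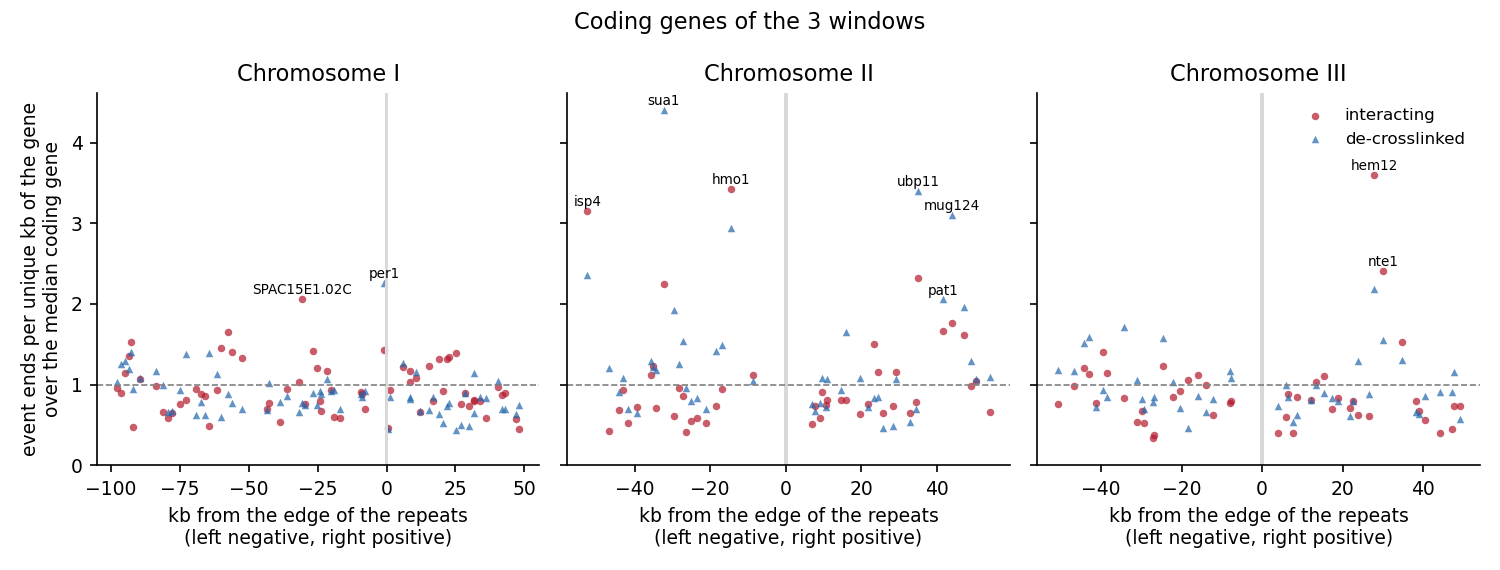
Event ends per unique kb of each coding gene with 500 bp on both sides, over the median coding gene (vertical), by distance from the repeats (horizontal; left negative), in the interacting (circles) and de-crosslinked (triangles) libraries; each gene has 1 symbol per library and the dashed line is the median gene. Named genes are at 2 or more in either library, such as hmo1 at 3.42 interacting and 2.94 de-crosslinked, and hem12 at 3.601 interacting and 2.19 de-crosslinked.

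Few places near the centromeres had a different share of the ends in the 2 libraries. In 10 kb bins with a unique majority, a bin was counted as higher or lower where its share of event ends differed by at least 1.5 times between the libraries, with no test. Higher in the interacting library were 2 of 35 window bins (5.71%), against a background of 2.96% of the 1218 bins of the genome. They were chrI:3690001-3700000, with 57 interacting and 53 de-crosslinked event ends (1.70 times the share), and chrI:3810001-3820000, with 52 interacting and 49 de-crosslinked (1.67 times). Lower in the interacting library were also 2 of 35, against a background of 2.3%. They were chrII:1570001-1580000 around sua1, with 59 interacting and 187 de-crosslinked event ends (0.498 times), and chrIII:1180001-1190000, with 28 interacting and 67 de-crosslinked (0.659 times). With so few bins, neither share was read as different from the background. Over all, events with an end in the windows made up 5.27% of the interacting library (95% Clopper-Pearson interval 5.04 to 5.51) and 5.56% of the de-crosslinked library (5.38 to 5.76), with a log2 odds ratio of -0.08 (two-sided Fisher's exact test, p = 0.0598). Without chromosome II the log2 odds ratio was 0.02 (p = 0.66), and without chromosome I it was -0.17 (p = 0.00148, Fisher's exact test).

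The joins, which the design of the study is about, were set against random joining of each library's own ends. The number expected comes from the product of the event ends in 1 kb bins, for ends at least 5 kb apart or on different chromosomes. Within one flank, crosslinked ligation gave far more events than this and ligation without crosslinks did not. The interacting library had 36 such events where 3.90 were expected, or 9.24 times (95% Poisson interval 6.47 to 12.8), and the de-crosslinked library had 6 where 6.59 were expected, or 0.91 times (0.33 to 1.98). They made up 1.99% of the 1807 interacting events with an end in a flank (Clopper-Pearson 1.40 to 2.75) and 0.198% of the 3037 de-crosslinked ones (0.0725 to 0.430), a log2 odds ratio of 3.36 (two-sided Fisher's exact test, p = 1.13e-10, adjusted over 3 kinds of joins 3.38e-10). All 6 flanks were above random in the interacting library, from 3.11 times on the left of chromosome I (5 events) to 16.1 times on the right of chromosome II (11 events). The left flank of chromosome I is also the longest, at 102.6 kb, against 49.5 to 57.1 kb for the others.

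Across the repeats few events were seen in either library. The interacting library had 3 such events where 4.08 were expected, or 0.74 times (0.15 to 2.15), and the de-crosslinked library had 13 where 7.09 were expected, or 1.83 times (0.98 to 3.14). As shares of flank events these were 0.166% in the interacting library, against 0.428% in the de-crosslinked library, a log2 odds ratio of -1.37 (two-sided Fisher's exact test, p = 0.194, adjusted 0.291). The ends on opposite sides of the repeats are far apart, and joins fall with distance, so stretches of the arms with the same 2 flank lengths and the same gap were used as a second level. Over 1092 to 1120 such arm positions per chromosome, joins across the gap were 1.97, 2.48 and 1.58 times random in the interacting library for the sizes of chromosomes I, II and III, and 1.00, 0.98 and 0.99 times in the de-crosslinked library. By that level 8.67 events across the repeats were expected in the interacting library, which had 0.35 times as many (0.07 to 1.01), and 7.01 in the de-crosslinked library, which had 1.86 times as many (0.99 to 3.17). The ratio of the libraries was 0.187, a log2 ratio of -2.42 (two-sided exact binomial test given the expected numbers, p = 0.00428, adjusted 0.00642).

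That call rests on few events and on the level chosen. Adjusted in the same way, the exact binomial test gave p = 0.101 without chromosome III and p = 0.0739 without chromosome II, which ends the call, and p = 0.0077 without chromosome I. Single arm positions also varied widely, and the test takes their pooled level as exact. Neighbouring arm positions overlapped over most of their length, so the shares that follow rest on far fewer separate places. Of the arm positions, 8.61% were as low as chromosome I or lower in the interacting library, 18.8% as low as chromosome II and 15.2% as low as chromosome III. In the de-crosslinked library 0 of 1102 arm positions were as high as chromosome III, where 5 events crossed the repeats and 1.28 were expected at random (3.90 times, 1.27 to 9.10). No event crossed there in the interacting library, 0 of 450, which allows a share of up to 0.667%, taken as 3 events of 450 and not as a Clopper-Pearson limit.

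**Figure D3:**
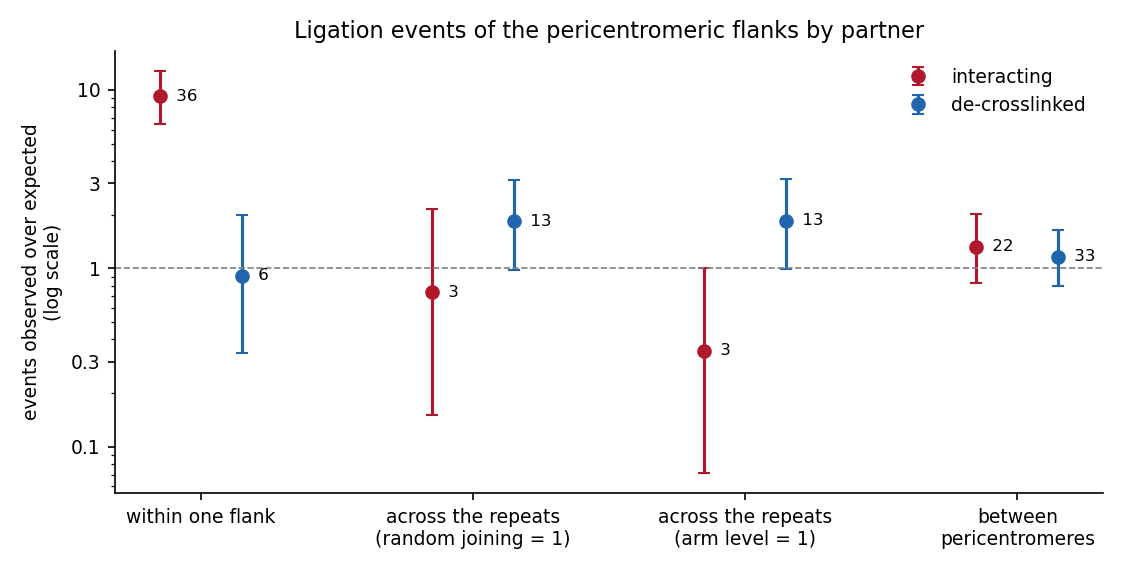
Events observed over expected (vertical, log scale) within one flank, across the repeats and between pericentromeres of different chromosomes, for the interacting and de-crosslinked libraries, with 95% Poisson intervals and the number of events beside each point. Across the repeats is shown over random joining and over arm positions of the same lengths and gap; the interacting library is at 9.24 within a flank and at 0.74 and 0.35 across the repeats.

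The 3 interacting events across the repeats can be named. On chromosome I, 1 event joined 3747535, in the hot region 1.9 kb from per1, to 3799043 inside azr1. On chromosome II, 1 event joined 1577950 in cwf7, a splicing factor gene, to 1682667, 194 bp from pat1. The other event of chromosome II joined 1601646 to 1647053, 3.66 kb left and 5.83 kb right of the repeats, and was read as 2 pairs. The de-crosslinked library held an event at nearly the same 2 places, 1601651 and 1647053. These places lie at the ends of near-identical copies of DNA. The copies match at 984 of 986 aligned bases (99.8%) at chrII:1600715-1601699 and chrII:1646053-1647038. Their last 100 bases or so and the DNA beyond are given below from RefSeq, with capitals at each base that matches in the alignment.
Left copy, chrII:1601600-1601749: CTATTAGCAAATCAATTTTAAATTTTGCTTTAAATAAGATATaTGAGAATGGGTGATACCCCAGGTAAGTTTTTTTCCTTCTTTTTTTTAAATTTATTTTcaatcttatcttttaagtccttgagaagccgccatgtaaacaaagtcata
Right copy, chrII:1646939-1647088: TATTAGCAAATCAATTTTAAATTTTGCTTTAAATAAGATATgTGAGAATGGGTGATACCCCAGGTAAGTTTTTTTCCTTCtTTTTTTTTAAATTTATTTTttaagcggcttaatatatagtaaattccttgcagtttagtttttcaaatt
The left position lies 53 bases before the end of its copy, and the right position 15 bases past the end of the other. Another de-crosslinked event, 1605035 with 1643218, also joined copies, on opposite strands, with 313 of 317 aligned bases identical. Of the other 13 events across the repeats none had 2 ends with 90% identity over 100 aligned bases or more. Whether reads of 1 copy were placed in the other was not tested. Without the events between copies, 2 interacting and 11 de-crosslinked events remained, and the log2 odds ratio was -1.71 (adjusted p = 0.225 by Fisher's exact test). This alternative was chosen after the events were seen.

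Of the 13 de-crosslinked events across the repeats 1 was on chromosome I, between ubr11 and rad50, 7 on chromosome II and 5 on chromosome III. On chromosome II, 4 of the 7 had their right end within the hot stretch from ubp11 to mug124, with left ends in uds1, SPBC28F2.05C and hmo1 and near isp4. Of the 690 de-crosslinked event ends in that right flank, 281 lay in chrII:1676624-1682956 and 136 in chrII:1683272-1690611, the hot regions of that stretch. The 4 of 7 was therefore near the share of the flank and was not read as a preference. On chromosome III, 1 of the 5 joined chk1 to SPCC4B3.13, and 1 of them joined ubc11 to tho1.

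By distance, joins at 5 to 100 kb on one side of the repeats were fewer, relative to random joining, than those of the genome, in both libraries. At 5 to 100 kb on one side of the repeats, the interacting library had 69 events, 4.57 times random (3.56 to 5.79), against 6.996 times for the whole genome (6.77 to 7.23). The de-crosslinked library had 14 events, 0.59 times (0.32 to 0.98), against 1.11 times for the whole genome (1.04 to 1.18). Across the repeats the same distances held 2 interacting events, 1.29 times random (0.16 to 4.67), and 6 de-crosslinked events, 2.28 times (0.84 to 4.97). The step from de-crosslinked to interacting was 7.81-fold beside the centromeres (4.40 to 13.9) and 6.32-fold in the genome (5.88 to 6.79), with overlapping intervals. At 5 to 10 kb the interacting library was at 21.1 times beside the repeats and 22.9 in the genome, where the de-crosslinked library was at 2.23 (0.46 to 6.51) beside the repeats and 1.959 in the genome. The interacting library was at 50 to 100 kb at 1.75 (0.98 to 2.89) beside the repeats and 3.15 (2.94 to 3.37) in the genome. At 100 to 500 kb the interacting library had 59 events with an end in a flank that crossed the repeats, 1.00 times random (0.76 to 1.29), and 69 on one side, 1.12 times (0.87 to 1.41). In the de-crosslinked library 107 such events crossed the repeats, 1.12 times random (0.92 to 1.36), and 113 lay on one side, 1.16 times (0.96 to 1.40). No test was made between the pericentromeres and the genome. The sum over 5 to 100 kb was chosen after its values were seen, as were the tiles that follow.

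**Figure D4:**
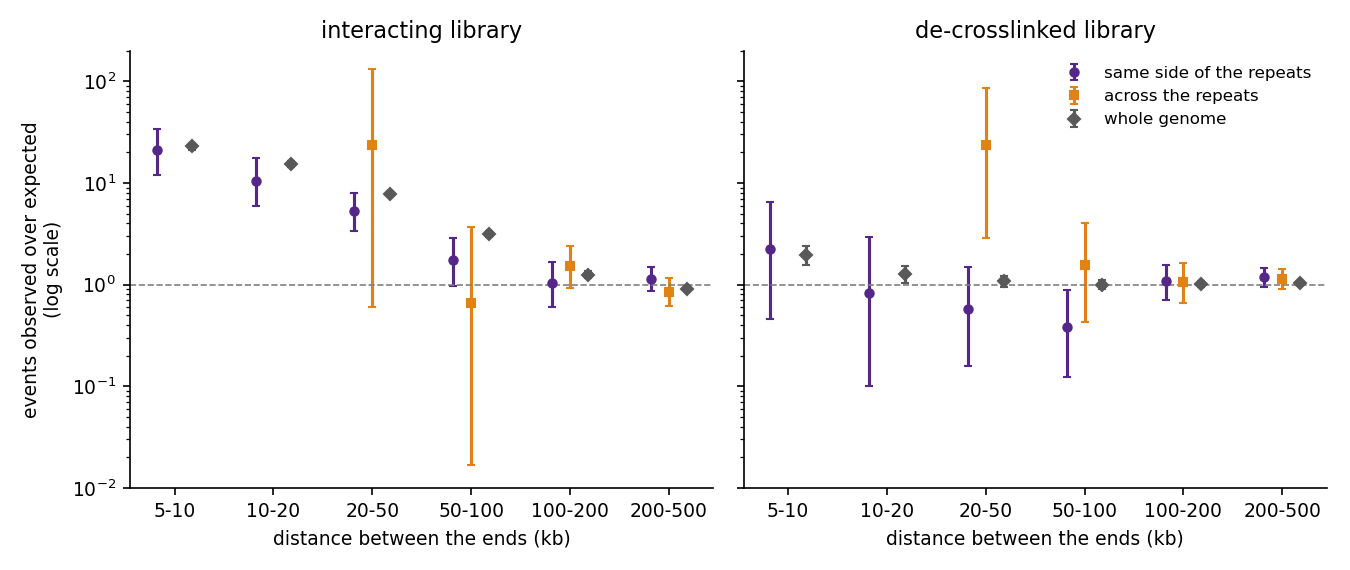
Events observed over expected (vertical, log scale) by distance between the ends in kb (horizontal), for events with an end in a flank on one side of the repeats (purple), across the repeats (orange) and for the whole genome (grey), with 95% Poisson intervals; left panel interacting, right panel de-crosslinked library. The 1 interacting and 2 de-crosslinked events across the repeats at 20 to 50 kb are those between copies, and purple points lie below grey ones from 10 to 100 kb in both panels.

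The 40 kb next to the repeats were set beside 294 tiles of 40 kb on the arms, counting joins of 5 to 100 kb with an end in the tile. In the interacting library the left side of chromosome I had 4 such events, 1.93 times random (0.52 to 4.93), with 1 of 294 arm tiles lower. The intervals of the 6 sides overlapped and no test was made between them. The right side of chromosome I had 3.03 times with 6 tiles lower, the right side of chromosome III 3.595 times with 15 lower, and the left side of chromosome III 4.33 times with 37 lower. Both sides of chromosome II lay amid the arms, at 6.12 times on the left and 5.53 on the right, where the median arm tile was at 6.09. In the de-crosslinked library the left side of chromosome I was at 0.34 times (1 event) and the left side of chromosome II at 1.86 times (9 events), with the median arm tile at 1.02. Summed over the 6 sides, joins were 4.29 times random in the interacting library (3.20 to 5.62), against 6.31 over the arm tiles, and 0.89 times in the de-crosslinked library (0.53 to 1.41), against 1.07. The sides differ in density too, from 0.66 to 1.15 times the genome mean in the interacting library. They also differ from the arm tiles in the mix of distances, as few partners can be placed within the repeats on 1 side. The part of density and of the mix of distances in the result was not tested.

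**Figure D5:**
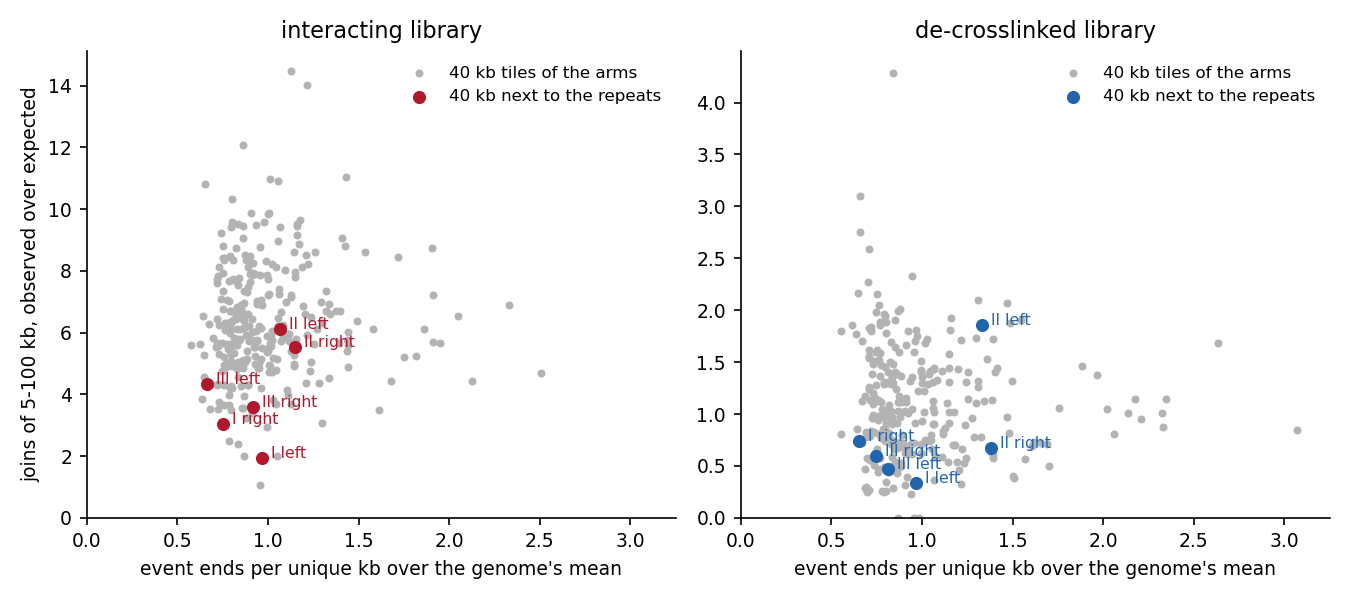
Joins of 5 to 100 kb, observed over expected (vertical), against density of event ends over the genome mean (horizontal) in 40 kb stretches; left panel interacting, right panel de-crosslinked library, with different vertical scales. Grey points are the 294 arm tiles and coloured points the 6 stretches next to the repeats; in the interacting library the left side of chromosome I is at 1.93 and both sides of chromosome II are amid the arm tiles.

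Between the pericentromeres of different chromosomes no difference of the libraries was detectable at this depth. The interacting library had 22 such events where 16.6 were expected, or 1.325 times (0.83 to 2.01), and the de-crosslinked library had 33 where 28.3 were expected, or 1.17 times (0.80 to 1.64). Of all events between chromosomes these were 0.112% of 19631 in the interacting library, against 0.0955% of 34555 in the de-crosslinked library, a log2 odds ratio of 0.23 (two-sided Fisher's exact test, p = 0.576, adjusted 0.576). For all DNA, events between chromosomes were 0.90 times random in the interacting library (0.89 to 0.91), against 1.00 times in the de-crosslinked library (0.99 to 1.01). By pair of chromosomes, the interacting library had 10 events between I and II (1.38 times), 8 between I and III (1.72 times) and 4 between II and III (0.85 times). The de-crosslinked library had 12 (0.98 times), 11 (1.54 times) and 10 (1.12 times), and each of these 6 intervals included 1.

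Most partners of the pericentromeres lay far away and were met at or near the random level. Of the 1807 interacting events with an end in a flank, 61.4% had the other end on another chromosome outside its flanks, 19.2% on the same arm beyond the window and 15.9% on the opposite arm. The observed numbers were 0.94 times random (0.89 to 1.00), 1.01 times (0.91 to 1.12) and 0.97 times (0.86 to 1.09). Of the 3037 de-crosslinked events the shares were 63.3%, 18.6% and 16.3%, at 0.98, 1.00 and 1.03 times random. The repeats of the same chromosome were the partner in 1 interacting and 2 de-crosslinked events, all on chromosome II.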

How the data were processed

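The authors deposited 1 line per ligated pair, giving for either end its chromosome, its position and whether they classed it hot or cold. Per the submitters' processing notes CASAVA 1.8.0 was used. The aligner, build and hot rule are not given in the sources used here. The 6 other samples of the series were not used here. On RefSeq ASM294v3, stretches of 500 bp or more without a unique 50-base word held 0 ends, but 15 interacting and 29 de-crosslinked ends once positions were shifted by -100 bp, so coordinates were read in that assembly.

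Lines with both ends within 500 bp were merged into events, which hold on average 2.87 pairs in the interacting table, against 2.20 in the de-crosslinked table. Whether merged lines were copies of 1 junction or separate junctions close together was not tested. Intervals are exact Poisson for counts and Clopper-Pearson for shares, and Fisher's tests were adjusted over 3 tests by Benjamini and Hochberg (scipy 1.17.1, alignments with biopython 1.88). Over arm positions, the binomial test replaced Fisher's test of crossing in that adjustment. The merging of copies and the expected numbers of joins were tested on simulated data. The genes named are the 3 nearest to the repeats on each side, those at the 3 fullest 1 kb bins of each window in each library, and those at the interacting events across the repeats; genes at 2 times the median gene or more and at de-crosslinked events across the repeats were chosen after their values were seen. Members, gene lists and tests were chosen with earlier results of these data known.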

Additional observations from a re-analysis of the deposited data

How the results depend on the processing

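Of 52 combinations of a tested result and an alternative, 39 kept direction and side of the threshold. Of 114 without a test, 86 stayed within the main value's interval, or within 1.5 times a count. Some of these passed 1: with 40 kb flanks, interacting crossing was 1.20 times random and de-crosslinked joins within a flank 1.34, and without chromosome I interacting joins between pericentromeres were 0.848. Intervals left out 1 for interacting crossing with every line (0.363), de-crosslinked crossing without chromosome I (2.36) and de-crosslinked joins between pericentromeres with every line (1.365), and took in 1 for de-crosslinked joins of 5 to 100 kb without any 1 chromosome. For the share of events in the windows the log2 odds ratio of -0.08 was -0.098 with every line counted, -0.100 with merging within 200 bp, -0.107 with 40 kb flanks and -0.169 without chromosome I, all past the threshold, and turned to 0.024 without chromosome II. Counting every line treats any copies of a junction as independent, which makes p-values too small where lines are such copies. Flank density was 0.866 with every line, 0.984 without chromosome I, 0.792 without II and 0.975 without III in the interacting library, against 0.895, 1.08, 0.764 and 1.004 in the de-crosslinked one. Left against right was -0.543 on chromosome I with every line, -0.033 on chromosome II with 40 kb flanks, and on chromosome III -0.400 with merging within 1000 bp and -0.390 with repeats widened by 5 kb. Interacting joins within one flank were 13.8 times random with every line, 13.3 without chromosome I, 6.46 without II and 4.04 from 20 kb, and those of 5 to 100 kb, an alternative added after the data were seen, 6.10 with every line. Crossing the repeats gave -1.79 with every line and -2.42 over arm positions, both past the threshold. Between pericentromeres the log2 odds ratio was -0.271 with every line and -0.506 without chromosome I. The hot share was 25.5% with 40 kb flanks in the interacting library, and 34.7%, 15.7% and 34.0% without chromosome I, II and III, against 39.8%, 18.0% and 39.2% in the de-crosslinked library. At 2-fold, 2 bins of the genome were higher and 1 lower, with 0 higher and 1 lower in the windows, and with bins of 5 kb these were 198, 153, 6 and 6. The cause of these changes was not tested. No paired analysis was possible because each group has 1 library. The main limits are 1 library per group, 3 interacting events across the repeats, and non-unique sequence of the repeats, where no end can be placed.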
